A study of Mus musculus with 20 samples.

Results

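The 10 genes described here are immediate early genes, whose transcription rises within minutes of a stimulus and needs no new protein: Fos, Fosb, Fosl2, Jun, Junb, Jund, Egr1, Egr2, Egr3 and Arc. They were chosen by name, as the rows of the deposited count table whose Ensembl identifiers carry these symbols, so they make up 10 of 29200 genes counted. Each was counted in the cerebellum of 20 male mice of the C57BL6/N strain, 5 in each of 4 groups. The groups were the WT/WT genotype at ages of 2 and 12 months and the 304Q/304Q genotype at the same ages.

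WT/WT littermates carried 2 unexpanded Atxn3 alleles, which the sample labels write as ataxin-2. In 304Q/304Q mice both alleles of murine Atxn3, the gene altered in spinocerebellar ataxia type 3, carried an expanded repeat for 304 glutamines, in which CAA codons interrupt the CAG codons, under the gene's own regulation. Zinc-finger nucleases made the allele, and all knock-in mice descend from 1 founder line. Counts per gene do not read the length of a repeat, so Atxn3 does not check the labels here. Its fitted log2 difference between genotypes was -0.54 at 2 months and -0.13 at 12 months, with adjusted p = 0.0916 and 0.510 in edgeR's quasi-likelihood test.

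Fos and Jun proteins pair through leucine zippers into the transcription factor AP-1, and Egr proteins are zinc-finger factors. Arc is not a transcription factor but a protein of the postsynapse that takes part in the removal of AMPA receptors, and its mRNA travels into dendrites. In neurons, calcium entry and the ERK kinase cascade switch these genes on through factors already bound to their promoters, and their mRNAs are short-lived. In the cerebellum most neurons are granule cells, and the Purkinje cells are the output of the cortex. The tissue was bulk cerebellum, so fewer cells of a type and less of a transcript per cell cannot be told apart in any value below.

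Every library held between 11385380 and 27636687 counted reads, with a median of 13522932, and the deepest was 304Q/304Q mouse 1 at 2 months. Markers of cerebellar granule and Purkinje cells were high throughout, each set of 12 genes summing to at least 7603 CPM (counts scaled so that a library sums to 1000000) in every library. Markers of the choroid plexus, a tissue next to the cerebellum, stood out in 6 libraries. Their 10 genes summed to between 24.9 and 44.7 CPM in 14 libraries, but to 1759 in 304Q/304Q mouse 3 at 2 months, to 424, 2154 and 1024 in WT/WT mice 1, 2 and 5 at 12 months, and to 1539 and 1439 in 304Q/304Q mice 1 and 3 at 12 months.

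Promoter sequences from RefSeq (GRCm38.p6) are shown for 5 genes of the Fos and Jun families whose co-variation is described below, each from 250 bases before to 50 bases after the start of transcription, 5′ to 3′. Capitals mark matches to the motifs searched on both strands, the TATA box excepted. These were the CArG box bound by serum response factor, the cAMP response element TGACGTCA, its core TGACG, the AP-1 site TGACTCA, its variant TGACATCA, and the Egr site GCGNGGGCG. The core is part of the full element, and all other matches could overlap freely.

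Fos promoter (chr12:85473640-85473939, + strand): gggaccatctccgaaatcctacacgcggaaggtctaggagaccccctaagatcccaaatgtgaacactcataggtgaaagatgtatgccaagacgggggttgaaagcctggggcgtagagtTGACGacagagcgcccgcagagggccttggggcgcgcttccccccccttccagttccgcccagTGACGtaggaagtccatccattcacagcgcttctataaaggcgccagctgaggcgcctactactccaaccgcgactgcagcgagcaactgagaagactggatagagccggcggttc
Fosb promoter (chr7:19309996-19310295, - strand): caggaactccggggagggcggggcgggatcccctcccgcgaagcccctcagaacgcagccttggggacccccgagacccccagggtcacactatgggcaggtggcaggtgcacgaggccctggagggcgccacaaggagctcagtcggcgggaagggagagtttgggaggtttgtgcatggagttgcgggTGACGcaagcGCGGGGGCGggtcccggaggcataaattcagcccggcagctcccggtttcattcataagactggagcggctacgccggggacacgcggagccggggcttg
Fosl2 promoter (chr5:32136222-32136521, + strand): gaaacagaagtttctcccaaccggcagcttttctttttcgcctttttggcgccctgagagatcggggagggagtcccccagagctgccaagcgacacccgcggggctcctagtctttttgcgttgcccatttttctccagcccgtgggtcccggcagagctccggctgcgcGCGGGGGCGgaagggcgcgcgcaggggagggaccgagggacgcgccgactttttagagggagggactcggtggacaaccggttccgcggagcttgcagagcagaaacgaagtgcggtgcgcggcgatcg
Jun promoter (chr4:95052173-95052472, - strand): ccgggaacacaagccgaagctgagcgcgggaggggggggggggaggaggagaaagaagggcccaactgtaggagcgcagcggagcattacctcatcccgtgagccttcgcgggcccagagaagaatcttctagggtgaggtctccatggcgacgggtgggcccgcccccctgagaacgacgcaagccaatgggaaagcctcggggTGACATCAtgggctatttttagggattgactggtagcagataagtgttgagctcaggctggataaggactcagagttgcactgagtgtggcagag
Junb promoter (chr8:84978699-84978998, - strand): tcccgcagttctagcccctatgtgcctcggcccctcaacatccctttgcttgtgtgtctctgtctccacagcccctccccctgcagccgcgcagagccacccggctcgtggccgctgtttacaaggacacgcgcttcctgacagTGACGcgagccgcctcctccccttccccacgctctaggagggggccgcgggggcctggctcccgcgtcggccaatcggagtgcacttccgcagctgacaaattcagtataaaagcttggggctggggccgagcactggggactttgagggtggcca

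Fos held 2 cores, at -129 to -125 and at -66 to -62 from its start, and Fosb and Junb held 1 each. The core was found in 20.8% of all 32817 promoters of this length and in 4 of the 7 genes with a window, the fourth being Egr2. Fosb and Fosl2 each held 1 Egr site, which 5.56% of promoters hold. Jun held the variant TGACATCA at -45 to -38, found in 3.62% of promoters. A CArG box, held by 1.63% of promoters, was found in windows of Egr2, and no window of the 7 genes held the full cAMP response element (1.79%) or TGACTCA (5.2%). These matches describe letters in 300 bases and were not tested as binding sites. RefSeq starts Fosl2 671 bases downstream of the GENCODE start of the gene. No promoter is printed for Egr1, Egr3 and Arc.

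Per kilobase of exon, the 10 genes spanned a wide range of levels. Neighbours in the order were taken as apart where their means differed by more than the sum of their SDs. In WT/WT mice at 2 months the order by mean was Fos (29.7 ± 17.1 CPM per kb, SD, n = 5), Jun (24.2 ± 4.45), Jund (21.2 ± 3.21), Egr1 (17.2 ± 1.89), Arc (9.99 ± 1.72), Junb (4.51 ± 1.06), Fosl2 (2.48 ± 1.58), Fosb (0.684 ± 0.439), Egr3 (0.139 ± 0.129) and Egr2 (0.0220 ± 0.0323). Egr1 stood apart from Arc and Arc from Junb, and no other neighbours did. In WT/WT mice at 12 months Fos led alone, at 43.5 ± 8.89 CPM per kb against 30.3 ± 2.67 for Jun. In 304Q/304Q mice at 12 months Jun came first (29.9 ± 3.64) and Fos, at 20.9 ± 22.0, was apart from neither of its neighbours, Egr1 and Arc.

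A test across genes was made where the mean over the 20 libraries was at least 50 counts. That limit kept 12153 genes, 8 of the 10 among them. Egr2 and Egr3 fell below it. The test was edgeR's quasi-likelihood test, adjusted over all 12153 genes by Benjamini-Hochberg, and calls needed an adjusted p no higher than 0.05 and a log2 difference of 0.5 or more either way. Each p of this test sets a difference of group means against the spread between mice of a group, estimated from all 20 libraries. Values below are CPM after scaling by edgeR's TMM, and mouse numbers are those of the sample titles.

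**Figure D1:**
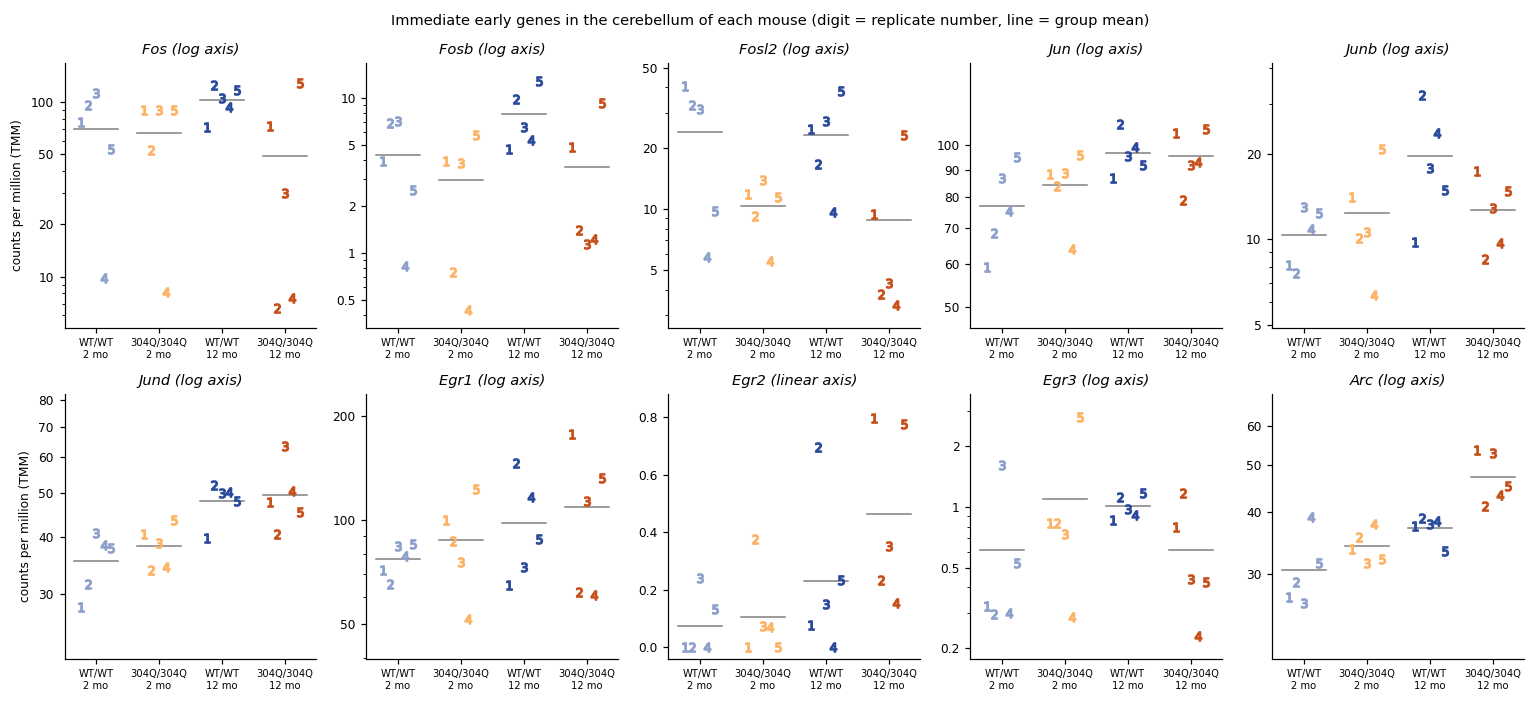
Level of each of the 10 genes in each of the 20 mice, in CPM (TMM-scaled), on a log axis except for Egr2, by group along the x axis. Digits are the mouse numbers and grey lines the group means. Fos lies at 6.63 to 9.80 CPM in 4 mice and at 29.9 CPM or more in the other 16, while the 5 Arc values of 304Q/304Q mice at 12 months all exceed those of WT/WT mice of that age.

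Fos (chr12:85473890-85477273, + strand) encodes the founding member of AP-1. In WT/WT mice 1 to 5 at 2 months it stood at 77.0, 95.8, 113, 9.80 and 53.4 CPM. At 12 months the WT/WT mice had 71.3, 124, 105, 93.7 and 117 CPM. Mouse 4 of the young group therefore lay far below the other WT/WT mice. Fos in 304Q/304Q mice was at 90.0, 53.2, 89.9, 8.14 and 90.3 CPM at 2 months. At 12 months the values were 73.0, 6.63, 29.9, 7.52 and 128 CPM, so that the group held both the lowest and the highest Fos level of the series. Between the 4 mice under 10 CPM and the next mouse lay a gap of 1.6 on the log2 scale. The 4 low mice came from 3 of the 4 groups, and none was a WT/WT mouse at 12 months. The fitted log2 difference of 304Q/304Q from WT/WT was -0.06 (SE 0.599) at 2 months and -1.05 (SE 0.606, adjusted p = 0.271, edgeR) at 12 months, and the groups overlapped at both ages.

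Fosb (chr7:19302696-19310051, - strand) encodes a close relative of Fos, also known for the stable splice form ΔFosB. WT/WT mice had 3.94, 6.93, 7.11, 0.823 and 2.56 CPM at 2 months and 4.70, 9.83, 6.47, 5.36 and 12.9 CPM at 12 months. The 304Q/304Q mice had 3.90, 0.755, 3.81, 0.429 and 5.77 CPM at 2 months and 4.85, 1.40, 1.14, 1.23 and 9.32 CPM at 12 months. All 4 mice low in Fos had 1.40 CPM or less of Fosb, as did mouse 2 of the 304Q/304Q group at 2 months and mouse 3 at 12 months. These values rest on 6 to 165 counts per library. The log2 difference at 12 months was -1.10 (SE 0.567, adjusted p = 0.213, edgeR), with overlapping groups.

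Fosl2 (chr5:32135801-32157842, + strand) encodes Fra-2, an AP-1 partner that lacks the activation domain of Fos. It was at 40.5, 32.7, 31.2, 5.83 and 9.79 CPM in WT/WT mice at 2 months and at 24.8, 16.7, 27.2, 9.67 and 38.3 CPM at 12 months. In 304Q/304Q mice it was at 11.9, 9.21, 13.9, 5.57 and 11.5 CPM at 2 months and at 9.42, 3.82, 4.31, 3.38 and 23.2 CPM at 12 months. Of the 10 WT/WT mice 7 had more Fosl2 than the second highest 304Q/304Q mouse, at 13.9 CPM, and mouse 5 at 12 months was the one 304Q/304Q mouse within their range. The log2 difference was -1.19 (SE 0.479, unadjusted p = 0.0204, adjusted p = 0.838) at 2 months and -1.38 (SE 0.492, unadjusted p = 0.00991, adjusted p = 0.0677) at 12 months in edgeR's test, and neither passed. Without 304Q/304Q mouse 5, the 12-month differences of Fosl2 and Fosb were -2.14 (adjusted p = 0.00463) and -1.84 (adjusted p = 0.0398), and both passed. Fosl2 also passed without WT/WT mouse 4 of either age, at -1.38 (adjusted p = 0.0407) without the young and -1.58 (adjusted p = 0.0414) without the old one. With 3 surrogate variables added to the fit, the 12-month differences of Fos, Fosb and Fosl2 were 0.11, 0.02 and -0.37 (adjusted p = 0.875, 0.983 and 0.292). They were -1.05, -0.55 and -0.85 (adjusted p = 0.537, 0.733 and 0.513) without the 6 libraries high in choroid plexus markers.

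Jun (chr4:95049034-95052222, - strand) encodes the main partner of Fos in AP-1. Over the 20 mice its level ran only from 59.4 to 109.6 CPM. WT/WT mice had 77.1 ± 14.2 CPM (SD, n = 5) at 2 months and 96.7 ± 8.50 at 12 months, and 304Q/304Q mice had 84.3 ± 12.1 and 95.4 ± 11.6. The lowest value at 2 months in each genotype was 59.4 CPM in WT/WT mouse 1 and 64.2 CPM in 304Q/304Q mouse 4. Jun overlaps the antisense gene Junos on the other strand, and the strand setting of the counting is not stated in the sources used here.

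Junb (chr8:84974484-84978718, - strand) encodes an AP-1 subunit that activates transcription less strongly than Jun. WT/WT mice had 8.12, 7.59, 13.0, 10.8 and 12.4 CPM at 2 months and 9.80, 32.0, 17.8, 23.6 and 14.8 CPM at 12 months. The groups overlapped through mouse 1 of the older group, which lay within the younger range. Junb in 304Q/304Q mice was at 14.1, 10.1, 10.6, 6.36 and 20.8 CPM at 2 months and at 17.4, 8.50, 12.8, 9.67 and 14.8 CPM at 12 months. Junb overlaps Prdx2 on the other strand, and reads of both may be mixed in its count if strand was not used.

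Jund (chr8:70698949-70700616, + strand) encodes the subunit that is present in resting cells. WT/WT mice had 28.1, 31.6, 40.9, 38.5 and 37.8 CPM at 2 months and 39.7, 52.0, 50.1, 50.4 and 47.97 CPM at 12 months. The 304Q/304Q mice had 40.6, 33.9, 38.9, 34.4 and 43.7 CPM at 2 months and 47.9, 40.6, 63.5, 50.6 and 45.5 CPM at 12 months. The age groups overlapped through WT/WT mouse 1 and 304Q/304Q mouse 2 of 12 months. Jund overlaps Gm11175 on the other strand, which has no row of its own in the table.

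Egr1 (chr18:34859823-34864984, + strand), also called Zif268, encodes the zinc-finger factor most used as a mark of neuronal activity. WT/WT mice had 71.6, 65.5, 84.4, 79.0 and 85.2 CPM at 2 months, the narrowest of its groups, and 64.96, 146, 73.4, 117 and 88.4 CPM at 12 months. The 304Q/304Q mice had 99.99, 86.8, 75.7, 51.7 and 123 CPM at 2 months and 178, 62.1, 114, 60.7 and 132 CPM at 12 months. Its SD as a percentage of the mean was 10.98% in young WT/WT mice and 45.4% in old 304Q/304Q mice, a difference that was not tested. No comparison of Egr1 between groups passed, with adjusted p from 0.391 to 0.979 in edgeR's test. With 3 surrogate variables in the fit it was higher in 304Q/304Q mice at 12 months, by 0.60 (adjusted p = 0.0452), in edgeR but not in DESeq2 (0.61, adjusted p = 0.215). Without surrogate variables this difference was 0.16, and it was -0.16 (adjusted p = 0.788) without the 6 libraries high in choroid plexus markers.

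Egr2 (chr10:67535475-67542188, + strand), also called Krox20 and known for its part in myelination by Schwann cells, was close to the limit of detection. Its counts were 0, 0, 3, 0 and 2 in WT/WT mice at 2 months, 0, 5, 1, 1 and 0 in 304Q/304Q mice at 2 months, 1, 10, 2, 0 and 3 in WT/WT mice at 12 months and 11, 3, 4, 2 and 11 in 304Q/304Q mice at 12 months. A count of 0, seen in 6 libraries, allows up to 3 counts. Egr3 (chr14:70077203-70082614, + strand), a further family member that Egr1 can induce, had 3 to 45 counts per library. Its level was 0.611 ± 0.569 CPM in young WT/WT mice and 1.09 ± 0.975 in young 304Q/304Q mice, and 1.01 ± 0.131 and 0.612 ± 0.373 at 12 months. In a fit with no filter neither gene passed in any comparison, with adjusted p of 0.335 or more (edgeR).

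Arc (chr15:74669083-74672570, - strand) had the smallest spread between mice of a group among the 8 genes tested. WT/WT mice had 26.9, 28.9, 26.2, 39.2 and 31.5 CPM at 2 months and 37.5, 39.0, 37.9, 38.4 and 33.3 CPM at 12 months. The 304Q/304Q mice had 33.6, 35.6, 31.6, 37.8 and 32.1 CPM at 2 months. At 12 months they had 53.5, 41.2, 52.8, 43.4 and 45.3 CPM, all above every other mouse of the series. In each young group the mouse with the highest Arc, mouse 4, was also the one with the lowest Fos.

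Between genotypes at 12 months Arc rose by 0.34 on the log2 scale (SE 0.0967, adjusted p = 0.0198, edgeR's quasi-likelihood test), from 37.2 ± 2.27 to 47.2 ± 5.601 CPM, with no overlap in 5 against 5 mice. The fold was below the limit for a call. Adjusted p alone passed for 1 of the 8 genes tested, against 12.5% of all genes, and groups did not overlap for 1 of 8, against 8.94%. Without WT/WT mouse 5 or 304Q/304Q mouse 1 or 3 of 12 months the difference was 0.31, 0.29 and 0.30 (adjusted p = 0.0637, 0.0634 and 0.0601). The 2 highest Arc values belonged to 304Q/304Q mice 1 and 3, which also had the high choroid plexus markers. Without the 6 libraries high in those markers the difference was 0.18 (SE 0.138, adjusted p = 0.453), resting on 2 WT/WT and 3 304Q/304Q mice of that age. WT/WT mouse 2 at 12 months, with the highest choroid plexus sum of all, had 39.0 CPM of Arc, the highest among WT/WT mice of that age. Other libraries high in these markers went the other way. WT/WT mouse 5 of that age (marker sum 1024 CPM) had the lowest Arc of its group, at 33.3 CPM, and mouse 1 (424 CPM) had 37.5 CPM. In young 304Q/304Q mice the lowest Arc, 31.6 CPM, was that of mouse 3 (1759 CPM). The part of choroid plexus tissue in the result was not tested.

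None of the 8 genes was called between genotypes at 12 months, where 3.09% of all genes were. At an unadjusted p under 0.05 there were 3 (Fosl2, Junb and Arc), against 27.3% of all genes, and DESeq2 called 0 as well. The 8 log2 differences had a median of -0.33 beside -0.004 over all genes tested, with 5 negative. Among the negative ones 3 were the Fos family, at -1.05 to -1.38, and the fourth was Junb at -0.64 (SE 0.280, adjusted p = 0.143, edgeR), which was -0.80 (adjusted p = 0.0369) without WT/WT mouse 1 of 12 months. Jun (-0.02, SE 0.112), Jund (0.04, SE 0.112) and Egr1 (0.16, SE 0.252) had differences smaller than their errors. For Jun the interval of 2 SE ran from -0.24 to 0.21, and for Fos from -2.26 to 0.16.

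At 2 months 0 of the 8 genes were called between genotypes, with 0.00823% of all genes called, and DESeq2 also called 0. The only one at an unadjusted p under 0.05 was Fosl2, against 5.55% of all genes. Arc differed by 0.16 (SE 0.0979, adjusted p = 0.914, edgeR) at that age. The term for a genotype difference that changes with age called 0 of 8, against 0.938% of all genes, and again 0 in DESeq2. Junb had the smallest unadjusted p in it, at 0.0335, with a difference of -0.90 (SE 0.400, adjusted p = 0.276). It was the only one under 0.05, against 15.9% of all genes.

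**Figure D2:**
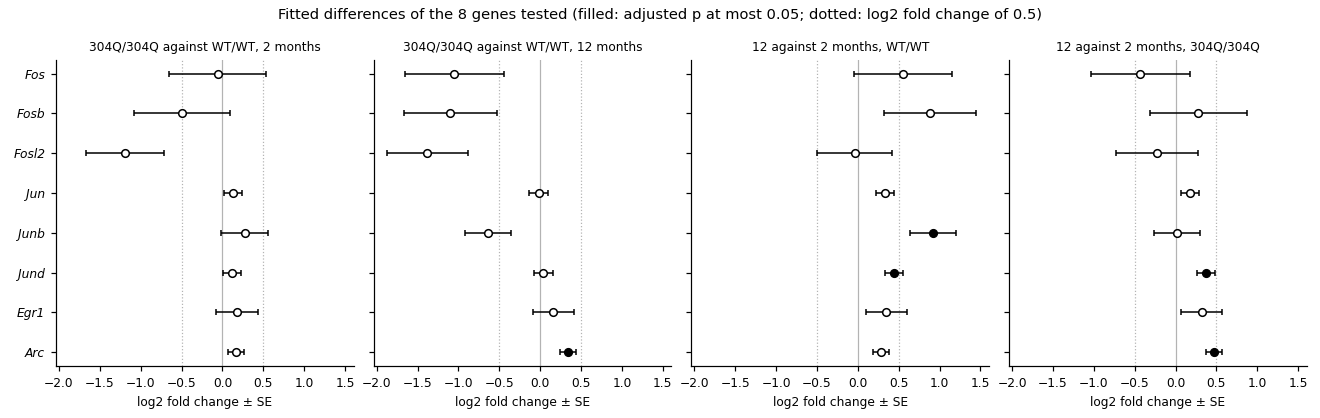
Fitted log2 fold changes with their standard errors for the 8 genes tested, between genotypes at each age and between ages in each genotype. Filled points have an adjusted p of at most 0.05 and dotted lines mark the fold limit of 0.5. Errors are about 0.5 to 0.6 for the Fos family and about 0.1 for Jun, Jund and Arc.

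With age, Junb rose in WT/WT mice by 0.92 on the log2 scale (SE 0.284, adjusted p = 0.0367, edgeR), from 10.4 ± 2.44 to 19.6 ± 8.55 CPM. It was the only one of the 8 genes called there, against 2.58% of all genes. The call was lost without WT/WT mouse 1 or 2 of 2 months (0.85 and 0.83, adjusted p = 0.0962 and 0.101) and without WT/WT mouse 2, 3 or 4 of 12 months (0.67, 0.95 and 0.85, adjusted p = 0.131, 0.0649 and 0.0830). With 3 surrogate variables it was 0.50 (adjusted p = 0.311). WT/WT mouse 2 of 12 months had the highest Junb and the highest sum of choroid plexus markers in the series. Mice 1 and 5 of that group, with marker sums of 424 and 1024 CPM, had its lowest and next lowest Junb (9.80 and 14.8 CPM). Choroid plexus markers ran from 24.9 to 31.3 CPM in WT/WT mice at 2 months and from 30.8 to 2154 at 12 months. Without the 6 libraries high in them the Junb change in WT/WT mice was 1.0 (SE 0.313, adjusted p = 0.0533, edgeR), with WT/WT mice 3 and 4 of 12 months left. The part of choroid plexus tissue in this change was not tested. The change of Junb with age in 304Q/304Q mice was 0.02 (SE 0.283).

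Jund rose with age in both genotypes, by 0.44 in WT/WT (SE 0.113, adjusted p = 0.0141) and 0.37 in 304Q/304Q mice (SE 0.112, adjusted p = 0.0441, edgeR), both below the fold limit. Arc rose with age in 304Q/304Q mice by 0.47 (SE 0.0965, adjusted p = 0.00237, edgeR), from 34.1 ± 2.57 to 47.2 ± 5.601 CPM, and the groups did not overlap. In WT/WT mice its change was 0.28 (SE 0.0982, adjusted p = 0.0609). The age changes of Arc did not differ between genotypes by the test, at 0.19 (SE 0.138, adjusted p = 0.521, edgeR). Jun changed by 0.33 in WT/WT mice (SE 0.113, adjusted p = 0.0609, edgeR). Adjusted p alone passed for 2 of 8 genes in each genotype, against 11.5% (WT/WT) and 7.26% (304Q/304Q) of all genes. The call rule gave 0 of 8 in 304Q/304Q mice, against 2.28% of all genes, in DESeq2 too, with 2 genes at an unadjusted p under 0.05 against 19.1%. Groups did not overlap for Arc alone in 304Q/304Q mice, against 7.8% of all genes, and for none of the 8 in WT/WT mice, against 6.57%. Without the 6 libraries high in choroid plexus markers the changes of Arc and Jund in 304Q/304Q mice were 0.32 (adjusted p = 0.167) and 0.25 (adjusted p = 0.373). The change of Jund in WT/WT mice was then 0.50 (adjusted p = 0.0299), which met the call rule. The Jund change in 304Q/304Q mice lost its adjusted p without any 1 of 304Q/304Q mice 1 to 4 of 2 months, 304Q/304Q mice 1, 3 and 4 of 12 months and WT/WT mice 2, 4 and 5 of 12 months, and was lowest, at 0.27 (adjusted p = 0.169), without 304Q/304Q mouse 3 of 12 months.

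Mice of 1 group differed far more in some of these genes than in others. The SD of log2 CPM between mice, pooled over the 4 groups, was 1.41 for Fos, 1.20 for Fosb and 0.955 for Fosl2. These ranked 7, 12 and 25 from the top of 12153 genes, whose median was 0.154. Junb (0.526, rank 80) and Egr1 (0.486, rank 105) followed. Jun (0.206), Jund (0.198) and Arc (0.160) lay near the middle, with 70.5%, 67.9% and 52.9% of tested genes below them.

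**Figure D3:**
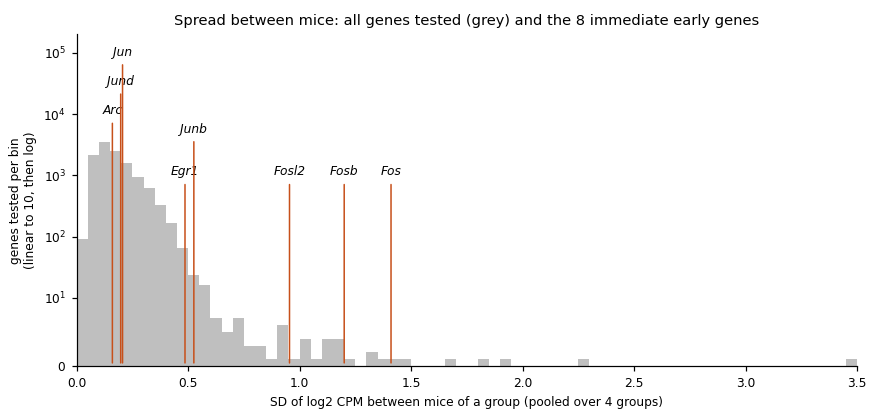
Number of genes tested by the SD of log2 CPM between mice of a group (pooled over 4 groups, x axis; y axis linear to 10 and log above it), with the 8 immediate early genes marked. Fos, Fosb and Fosl2 lie at 0.955 to 1.41, and Arc at 0.160 lies close to the median of 0.154.

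Which genes moved together from mouse to mouse was measured as the Pearson r of log2 CPM after each group's mean was subtracted, over the 45 pairs of the 10 genes. Each p came from 100000 permutations of mice within groups and was adjusted over the 45 pairs. The mice fell into separate clusters for Fos, so pairs with Fos were computed over the 16 mice above the gap, a rule set after its values had been seen. All values of a mouse share its library and scaling. Of the 45 pairs 6 passed, each with a positive r, and they formed 2 sets that no passing pair joined.

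The first set was the Fos family. Fos and Fosb had r = 0.92 over 16 mice (permutation p = 3e-05, adjusted p = 0.00045; Spearman rho = 0.94, permutation p = 4e-05), and r = 0.90 without the 2 farthest mice. Fosb and Fosl2 had r = 0.80 over 20 mice (permutation p = 0.00012, adjusted p = 0.00108; rho = 0.74, permutation p = 0.00041), and r = 0.74 without the 2 farthest. For Fos and Fosl2 r was 0.71 over 16 mice (permutation p = 0.0240, adjusted p = 0.120; rho = 0.60, permutation p = 0.0583), which did not pass and dropped to 0.49 without the 2 farthest.

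The second set held Jun, Junb, Jund and Egr1. Junb and Egr1 had r = 0.89 over 20 mice, with the smallest p that these permutations can give (permutation p = 1e-05, adjusted p = 0.000225; rho = 0.90, permutation p = 1e-05). Without the 2 farthest mice r was 0.86. Jun and Junb had r = 0.82 (permutation p = 1e-05, adjusted p = 0.000225; rho = 0.86, permutation p = 1e-05), and 0.81 without the 2 farthest. Jun and Egr1 had r = 0.71 (permutation p = 6e-05, adjusted p = 0.000675; rho = 0.73, permutation p = 0.00014), and 0.73 without the 2 farthest. Junb and Jund had r = 0.66 (permutation p = 0.0015, adjusted p = 0.0113; rho = 0.71, permutation p = 0.00123), and 0.58 without the 2 farthest. No other pair with Jund passed. The adjusted permutation p of Junb and Jund reached 0.0771 under the alternatives run and 0.0504 without single libraries, so the pair did not always pass. Mouse 4 of the 304Q/304Q group at 2 months was lowest of its group in Jun, Junb and Egr1, and mouse 5 highest.

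Between the 2 sets the 12 values of r ran from -0.28 for Fosl2 and Jund to 0.53 for Fosb and Egr1 (permutation p = 0.0334, adjusted p = 0.124; rho = 0.49, permutation p = 0.0473), and none passed. Within each genotype and each age, given with no test, values were computed for pairs other than those with Fos. For Junb and Egr1 r was 0.92 over the 10 WT/WT mice, 0.91 over the 10 304Q/304Q mice, 0.96 over the 10 mice of 2 months and 0.88 over the 10 mice of 12 months. For Fosb and Fosl2 the same 4 values were 0.79, 0.85, 0.78 and 0.85. Pairs between the 2 sets differed by genotype in these values, those with Jund less than the others. Over the 10 304Q/304Q mice r was 0.84 for Fosb and Jun, 0.81 for Fosb and Junb, 0.71 for Fosb and Egr1, 0.74 for Fosl2 and Jun and 0.70 for Fosl2 and Egr1. Over the 10 WT/WT mice the same 5 values were -0.01, 0.03, 0.08, -0.50 and -0.44. For Fosl2 and Junb r was 0.61 over the 304Q/304Q and -0.47 over the WT/WT mice. With Jund r was 0.19 for Fosb and -0.04 for Fosl2 over the 304Q/304Q mice, against -0.07 and -0.50 over the WT/WT mice. The difference between genotypes was not tested.

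**Figure D4:**
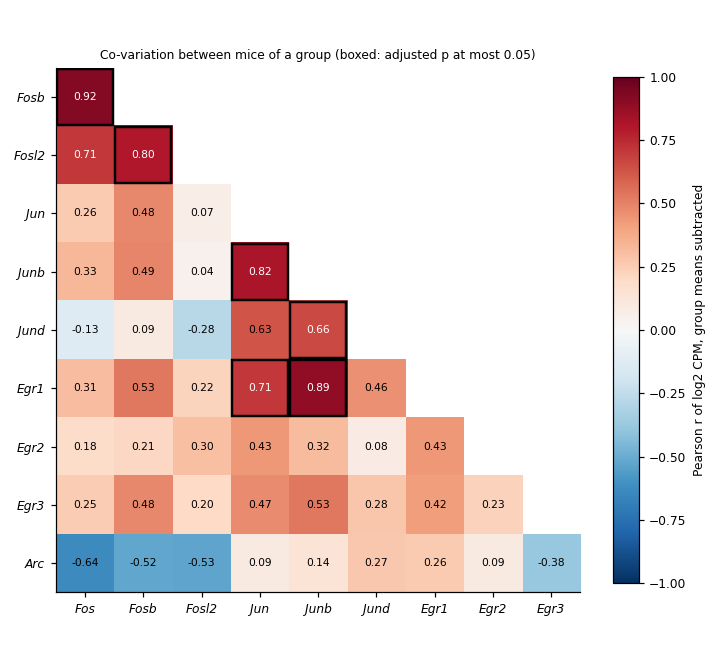
Pearson r between mice for the 45 pairs of the 10 genes, from log2 CPM with group means subtracted (colour scale from -1 to 1). Pairs with Fos use 16 mice and the others 20, and boxes mark the 6 pairs with an adjusted p of at most 0.05. The boxes fall within the Fos family and among Jun, Junb, Jund and Egr1, and the bottom row, Arc, is negative against Fos, Fosb, Fosl2 and Egr3.

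None of the 9 pairs of Arc with the transcription factors passed, and the values of r ran from -0.64 to 0.27. Against Fos r was -0.64 over 16 mice (permutation p = 0.0337, adjusted p = 0.124; rho = -0.57, permutation p = 0.0641), and -0.57 without the 2 farthest. Against Fosb it was -0.52 over 20 mice (permutation p = 0.0359, adjusted p = 0.124; rho = -0.43, permutation p = 0.0984), and -0.27 without the 2 farthest. Against Fosl2 it was -0.53 (permutation p = 0.0596, adjusted p = 0.185; rho = -0.46, permutation p = 0.0917), and -0.40 without them. By age, with no test, Fosl2 and Arc had r = -0.93 over the 10 mice of 2 months and -0.04 over the 10 mice of 12 months. By genotype the pair had r = -0.87 over the 10 WT/WT and -0.05 over the 10 304Q/304Q mice. With Jun, Junb, Jund and Egr1 the values of r for Arc were 0.09, 0.14, 0.27 and 0.26.

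**Figure D5:**
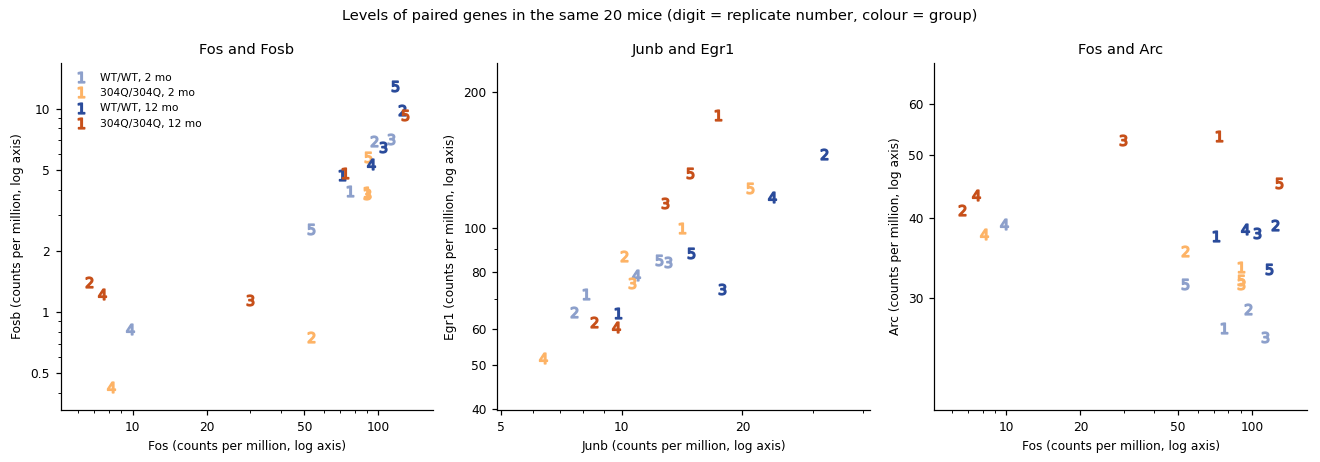
Levels of Fos and Fosb, of Junb and Egr1, and of Fos and Arc in the same 20 mice, in CPM on log axes. Digits are mouse numbers and colours the groups. Fos spans 6.63 to 128 CPM while Arc spans 26.2 to 53.5, and the 5 old 304Q/304Q mice lie highest in Arc across the whole range of Fos.

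The ratio of Arc to each other gene was compared between groups with an exact 2-sided permutation test of 5 against 5 mice, whose smallest possible p is 0.00794, adjusted over 36 tests. At 12 months 7 of the 9 ratios were higher in 304Q/304Q mice at an unadjusted exact p between 0.0159 and 0.0397, and 0 of 9 passed the adjustment (adjusted p = 0.204). All 9 share Arc, whose own values did not overlap between genotypes at that age, so they are not separate results. Ratios of Arc to the other genes tested were not computed, so the count has no background. The log2 ratio of Arc to Jun was -1.37 ± 0.11 in the WT/WT group and -1.01 ± 0.17 in the 304Q/304Q group, a difference of 0.36 (exact permutation p = 0.0159). Arc to Junb differed by 0.90 (exact permutation p = 0.0238), Arc to Fosl2 by 2.00 (exact permutation p = 0.0238) and Arc to Fos by 2.23 (exact permutation p = 0.0317). Ratios to Egr1 (0.24, exact permutation p = 0.444) and Egr2 (-0.47, exact permutation p = 0.421) were the 2 without such a p. All 9 ratios overlapped between the groups.

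Of the genes that are not among the 10, those whose deviations were most like Arc's over the 20 mice were Ralgds (r = 0.87), Pla2g12a (0.84), Lingo3 (0.82), Gpr146 (0.81) and Cdipt (0.78). Those most like Fos over the 20 mice were Nr4a1, Dusp1, Npas4, Tob2 and Sik1, with r of 0.98, 0.77, 0.82, 0.85 and 0.87 over the 16 mice above the gap. The 5 genes were picked as the highest r among 12153 genes, so these values carry no test.

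Other genes of the same response were taken from lists chosen with earlier results known, in addition to the 10. Of 28 further rapid response genes, all tested, 8 fell and 0 rose between genotypes at 12 months by the call rule, against 1.83% of all genes lower and 1.26% higher. Their median was -0.58 on the log2 scale beside -0.004 over all genes, with 26 of 28 negative. These genes are not independent between mice. Nr4a1, Npas4 and Sik1 of the list moved with Fos over the 20 mice (r = 0.97, 0.96 and 0.93). At 12 months 304Q/304Q mice 2 and 4 were in the low Fos cluster and no WT/WT mouse was. The part of those mice in the median was not tested. Named by rule were Nr4a2 (an orphan nuclear receptor, -2.10, SE 0.535, adjusted p = 0.0104), Klf2 (-1.22), Klf4 (-1.15), Per1 of the circadian clock (-1.08, SE 0.220, adjusted p = 0.00177), the kinase Sik1 (-1.06), the pseudokinase Trib1 (-0.83) and the secreted Ccn2 (-0.81). The eighth, Csrnp1 (-0.62, SE 0.204, adjusted p = 0.0472), lay outside the rule and was added after its value was seen. Groups did not overlap for 3 of the 28 (Nr4a2, Per1 and Ccn2), against 8.94% of all genes. Without the 6 libraries high in choroid plexus markers, with 5 mice left at 12 months, 0 of the 7 named by rule stayed past an adjusted p of 0.05, their differences being -0.57 to -1.69. With 3 surrogate variables in edgeR's fit the differences of Klf4, Klf2, Trib1 and Sik1 were -0.56, -0.41, -0.35 and -0.24 and no longer passed. Single mice of 12 months also decided some of these calls. Sik1 was lost without WT/WT mouse 3 or 5 or 304Q/304Q mouse 2, 3 or 4 (-0.89 to -1.02), Klf2 without WT/WT mouse 3 or 5 or 304Q/304Q mouse 2 or 4 (-1.06 to -1.13), Klf4 without WT/WT mouse 3 or 5 (-1.06 and -1.01) and Ccn2 without 304Q/304Q mouse 2 (-0.75). With age in 304Q/304Q mice 1 of the 28 rose, against 1.37% of all genes, and 0 fell, the one being Ier5 (0.77, SE 0.137, adjusted p = 0.000553, edgeR). Between genotypes at 12 months Ier5 was higher, by 0.48 (SE 0.137, adjusted p = 0.0227, edgeR), just below the fold limit. It met the call rule without WT/WT mouse 2 or 5 or 304Q/304Q mouse 2 or 5 of that age. It lost its adjusted p without WT/WT mouse 3 or 304Q/304Q mouse 1 or 4.

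Of 11 feedback inhibitors of the pathway, 3 fell and 0 rose between genotypes at 12 months, against 1.83% of all genes lower and 1.26% higher. Their median was -0.40 beside -0.004 over all genes, with 10 negative. Dusp1 of this list moved with Fos over the 20 mice (r = 0.97), so it is not independent of the rapid response genes. Groups did not overlap for 3 of the 11, against 8.94% of all genes. Nab2, a co-repressor that binds Egr proteins, fell from 60.0 to 37.0 CPM (log2 -0.70, SE 0.0589, adjusted p = 1.79e-08) with no overlap. It differed by -0.35 (adjusted p = 0.00824, edgeR) at 2 months, also with no overlap and below the fold limit. That 2-month difference missed an adjusted p of 0.05 with only the groups compared (-0.35, adjusted p = 0.0759), without the 6 libraries high in choroid plexus markers (-0.32, adjusted p = 0.152) and without 304Q/304Q mouse 3 of 2 months (-0.32, adjusted p = 0.05003). Dusp5, a phosphatase of nuclear ERK, fell from 156 to 51.0 CPM at 12 months (log2 -1.61, SE 0.171, adjusted p = 5.25e-07), and Dusp1, a phosphatase of MAP kinases, from 118 to 53.0 CPM (-1.15, SE 0.360, adjusted p = 0.0361), both with no overlap. The SD between mice of Nab2 was 0.0711 on the log2 scale, with 5.1% of genes tested below it. Without the 6 libraries high in choroid plexus markers the Dusp1 difference was -1.50 (adjusted p = 0.121), and with 3 surrogate variables it was -0.41 (adjusted p = 0.282) in edgeR and -0.39 (adjusted p = 0.547) in DESeq2. The Dusp1 call was also missed by DESeq2 without them (adjusted p = 0.05035), which called 2 of the 11 genes. It was lost without any 1 of WT/WT mice 2 to 5 or 304Q/304Q mice 2 to 4 of 12 months, where the difference was -0.95 to -1.18 (adjusted p from 0.0547 to 0.101).

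The remaining lists held few calls. In edgeR's test 0 of 4 tested relatives in the AP-1 family, 0 of 9 delayed synaptic and secreted response genes, 0 of 26 upstream kinases and factors and 0 of 15 synaptic partners of Arc were called between genotypes at 12 months, against 3.09% of all genes. DESeq2 called 0 in each list. At an unadjusted p under 0.05 there were 0, 5, 7 and 6 of them, against 27.3% of all genes, and their median log2 differences were -0.12, -0.16, 0.02 and -0.06. With age, the kinase Camk4 fell in WT/WT mice (-0.61, SE 0.0775, adjusted p = 2.84e-05, edgeR) and Sh3gl3, an endophilin that binds Arc, fell in 304Q/304Q mice (-0.76, SE 0.214, adjusted p = 0.0290, edgeR). Camk4, Sh3gl3 and the heat shock genes were named after their values were seen. Of 10 heat shock genes tested, which stress also induces quickly, 4 fell between genotypes at 12 months (Hspa1b, Hspb1, Hspa5 and Bag3), against 1.83% of all genes. With age in WT/WT mice 4 rose (Hspa1b, Hspb1, Bag3 and Dnajb1), against 1.4%. Hspa1b had the largest difference in both, at -2.16 and 1.92 (adjusted p = 0.00191 and 0.00676, edgeR). The summed level of 11 heat shock genes was 2762 to 4207 CPM at 12 months in WT/WT mice and 2867 to 3369 CPM in 304Q/304Q mice.

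Summed markers of 8 of 13 cell type lists lay apart between genotypes at 12 months, given here with no test. No share over other sets of genes was computed, and each sum is weighted to its most abundant markers. Lower in 304Q/304Q mice were 12 markers of myelinating oligodendrocytes (5327 to 6061 CPM in WT/WT against 3508 to 4849), 12 of Purkinje cells (9392 to 10270 against 7640 to 8402), 12 of astrocytes and Bergmann glia (6562 to 6717 against 5820 to 6021) and 10 of inhibitory interneurons (1456 to 1707 against 1223 to 1276). So were 12 of endothelial cells (447 to 456 against 393 to 423), 9 of forebrain neurons (165 to 203 against 115 to 142) and 6 of blood (117 to 249.2 against 96.8 to 113). The sum of the 7 markers of unipolar brush cells was higher in 304Q/304Q mice, at 1075 to 1155 CPM against 895 to 1008. Of the 6 of them tested, 3 log2 differences were positive and 3 negative, with a median of 0.01. Markers of granule cells (7884 to 8420 against 7603 to 8456), microglia, mural cells, meninges and the choroid plexus overlapped. By gene, groups did not overlap, being lower in 304Q/304Q mice, for 4 of 12 tested oligodendrocyte, 7 of 12 Purkinje and 4 of 12 astrocyte markers. The same held for 4 of 9 interneuron, 1 of 12 endothelial, 1 of 3 forebrain and 3 of 5 blood markers. Of all genes, 8.94% did not overlap in either direction. Positive log2 differences in these 7 lists numbered 1, 2, 3, 0, 4, 1 and 0. No marker of the lists was at 0 in all libraries, but 6 of the 9 forebrain markers averaged under 50 counts. The part of these shifts in the differences of Arc and of the other rapid response genes was not tested.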

How the data were processed

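RNA was sequenced from the cerebella of 20 mice, taken after CO2 inhalation and kept in RNAlater, as polyA-enriched stranded libraries read in pairs. The authors aligned the reads with STAR (2.4.5b per the submitters' processing notes) to Ensembl GRCm38 and deposited raw read counts per Ensembl gene, made with Rsubread. The strand setting is not given in the sources used here. Groups and mouse numbers came from the sample titles. Of 29200 gene identifiers 29150 were found in GENCODE M21 and took its symbols, positions and exon lengths.

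From the deposited counts, genes averaging 50 counts or more were tested with edgeR 4.0.16 (limma 3.58.1, R 4.3.3) by glmQLFit and glmQLFTest, with TMM scaling and 1 term per group in 1 fit of all 20 libraries. For a call, p after Benjamini-Hochberg adjustment had to be 0.05 or lower and the log2 difference 0.5 or larger either way. The common biological coefficient of variation was 0.113. Totals of 11385380 to 27636687 counts per library set the depth. Log2 CPM used a prior count of 2. Alternatives were DESeq2 1.42.0, 3 surrogate variables from sva 3.50.0, other scalings and count limits, a replicate block, leaving out each library and, chosen after seeing the data, leaving out the 6 libraries with choroid plexus markers at 200 CPM or more. Scripts were tested on simulated data. The study's number of surrogate variables is not given in the sources used here.

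The members and all gene lists were chosen with earlier results of these data known. Named were all 10 members, the called genes of 4 lists of AP-1, rapid response, delayed response and feedback genes (at most 10 per comparison by p), and the 5 genes most like Arc and Fos between mice. No replicate pair agreed within sampling noise, with a chi-square per degree of freedom of at least 4.43.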

Additional observations from a re-analysis of the deposited data

Results flagged for a closer look

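Of 84 sets of 5 mice looked at, for 21 genes in 4 groups, 6 held a mouse set far apart from the others, where chance sets about 1 in 20 apart. The measure is the gap to the nearest mouse divided by the whole range on the log2 scale. Mouse 4 of the 304Q/304Q group at 2 months was lowest in Fos (0.779 of the range, 8.14 CPM against 53.2 for the next mouse), in Nr4a2 (0.714, 8.22 against 28.5 CPM) and in Dusp5 (0.822, 67.5 against 104.5 CPM). In WT/WT mice at 2 months, mouse 4 was lowest in Dusp5 (0.835, 79.1 against 136.7 CPM). In WT/WT mice at 12 months, mouse 5 was lowest in Arc (0.748, 33.3 against 37.5 CPM). Mouse 5 of the 304Q/304Q group at 12 months was highest in Per1 (0.89, 155 against 97.3 CPM).

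The genotype difference of Dusp5 changed with age, by -1.23 on the log2 scale (SE 0.236, adjusted p = 0.00466, edgeR's quasi-likelihood test). It was -0.38 (adjusted p = 0.860) at 2 months and -1.61 (adjusted p = 5.25e-07) at 12 months. The same term was -1.20 (adjusted p = 0.0994) without the 6 libraries high in choroid plexus markers. What sets these mice apart was not tested.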

How the results depend on the processing

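The count of the 10 genes called between genotypes at 12 months was 0 in the fit reported and 1 with no fold limit (Arc), with 3 surrogate variables in edgeR (Egr1), with no filter on low counts (Fosl2, -1.37, adjusted p = 0.0234) and with a replicate block (Fosl2, -1.46, adjusted p = 0.0194, edgeR), and it was 0 to 2 without single libraries. With age in WT/WT mice 1 became 2 with no fold limit, 0 with 3 surrogate variables in either tool and 0 with only the groups compared (Junb at adjusted p = 0.05001), and 0 to 2 without single libraries. With age in 304Q/304Q mice 0 became 2 with no fold limit and 0 to 1 without single libraries. The 6 correlated pairs became 14, and the 0 pairs of Arc became 3, with no group mean subtracted. Between 5 and 14 pairs passed over the alternatives, and 6 to 8 without single libraries. The pairs of Arc were 0 to 1 without single libraries. Counts of calls at 2 months and for the term of genotype with age stayed at 0 under each alternative run. The mouse numbers were not taken as pairs, since same-numbered mice of different groups did not deviate together (30 pairs, r from -0.32 to 0.55, median -0.04, 6 over 0.1). With the replicate block 7 pairs of genes passed, and Fosb and Fosl2 had r = 0.64 (adjusted p = 0.0535).

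Directions turned under surrogate variables, given for DESeq2 and then edgeR. At 2 months these were Fos (0.25, 0.22), Klf4 (0.12, 0.10), Dusp1 (0.06, 0.06) and Ier5 (-0.05, -0.05). At 12 months they were Fos (0.14, 0.11), Jun (0.18, 0.17) and, in edgeR, Fosb (0.02). With age in WT/WT mice they were Fos (-0.08, -0.08), Egr1 (-0.19, -0.18) and Trib1 (-0.02, -0.01). With age in 304Q/304Q mice they were Klf4 (0.09, 0.09), Klf2 (0.11, 0.09), Sik1 (0.06, 0.06) and, in edgeR, Fosl2 (0.06). In the term of genotype with age they were Fosb (0.13, 0.18), Fosl2 (0.05, 0.18), Jun (0.07, 0.06), Egr1 (0.48, 0.48) and, in DESeq2, Jund (0.0016).

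Without the 6 libraries high in choroid plexus markers the values that turned were Jund (-0.14) and Egr1 (-0.16) at 12 months, Fosl2 (0.08), Junb (-0.24) and Egr1 (-0.09) with age in 304Q/304Q mice, Fosb (0.03), Fosl2 (0.46), Arc (-0.0035) and Ccn2 (0.08) in the term of genotype with age, and r of Arc with Junb (-0.13), Egr1 (-0.07) and Egr2 (-0.02).

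Without single libraries, differences ranged over 0 for Fos (-0.34 to 0.22), Dusp1 (-0.36 to 0.09) and Ier5 (-0.01 to 0.14) at 2 months, and for Jun (-0.07 to 0.04), Jund (-0.06 to 0.11) and Egr1 (-0.09 to 0.34) at 12 months. With age they did so for Fosl2 (-0.29 to 0.23), Nab2 (-0.05 to 0.0011) and Trib1 (-0.08 to 0.18) in WT/WT mice and for Fosb (-0.46 to 0.64), Junb (-0.14 to 0.28) and Ccn2 (-0.02 to 0.23) in 304Q/304Q mice. In the term of genotype with age they did so for Fosl2 (-0.95 to 0.06), Jund (-0.17 to 0.0002) and Egr1 (-0.27 to 0.16), as did r of Arc with Jun (-0.06 to 0.27) and Egr2 (-0.0014 to 0.27). The cause was not tested for any of these. At this depth Egr2 and Egr3 were too low for a test across genes.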
